A study of Homo sapiens with 8 samples.

Results

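The genes described here are 10 named members of the oxygen-sensing pathway: the hypoxia-inducible factor (HIF) subunits HIF1A, EPAS1 and ARNT, the prolyl hydroxylases EGLN1, EGLN2 and EGLN3, the ubiquitin ligase subunit VHL, and the hypoxia-inducible genes VEGFA, ANKRD37 and NDRG1. They were taken by name from the 62826 genes of the deposited gene tables. All 10 were among the 19785 genes with enough reads to be tested. The cells were LUHMES, a human mesencephalic line immortalised with a tetracycline-controlled v-myc gene, which leaves the cell cycle and takes on the features of dopaminergic neurons when it is differentiated. Both groups were labelled wild type and were differentiated for 6 days in medium with 1 mM dbcAMP, a growth factor (2 ng/mL GDNF) and 1 µg/mL tetracycline. One group then received antimycin A (25 µM), which blocks complex III of the respiratory chain, and oligomycin (10 µM), which blocks the ATP synthase, for 8 h, and the other received the DMSO vehicle. The titles number the differentiations 2 to 5 in each group, which gives 4 libraries per group. The series text calls the batches independent and names 4 technical replicates in each, so p-values measure the spread between differentiations of 1 cell line.

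HIF is a pair of proteins, an alpha subunit (from HIF1A or EPAS1) that is made and destroyed continuously and a stable partner, ARNT. In oxygenated cells the EGLN enzymes use oxygen and 2-oxoglutarate to hydroxylate prolines of the alpha subunit, VHL recognises the hydroxylated form, and the proteasome destroys it. When oxygen at the enzymes is short the alpha subunit survives, pairs with ARNT and binds hypoxia response elements near its target genes, EGLN3 and VEGFA among them. This control acts on protein, which RNA sequencing does not measure.

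Promoter sequence was available for 7 of the 10 genes in a table of RefSeq promoters on GRCh38.p14, as windows of 300 bases that run from 250 bases before a start to 50 after it. Entries for VEGFA, VHL and NDRG1 were not used here. The windows were searched on both strands for the core letters of the hypoxia response element. These are ACGTG, called the A form below, while the G form is spelled with a first G as GCGTG. A palindrome, the E-box, was searched as CACGTG, and it holds the A form on each strand. Among all 35116 windows, 21.4% held the A form, 36.5% the G form and 7.26% the E-box. The A form was found 3 times in the window of ANKRD37, 2 times in a window of EGLN2 and 1 time in that of EGLN1, while EPAS1 and HIF1A held the G form 1 time each. No match was found in the windows of ARNT and EGLN3. The stretches that hold these letters are shown with the letters in capitals, because they let the hydroxylases and the genes that rose be compared with the 2 alpha subunits, of which 1 rose. A match describes the sequence and is not evidence of binding.
ANKRD37, chr4:185396676-185396705, plus strand: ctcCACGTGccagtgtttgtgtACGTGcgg
EGLN2, chr19:40799130-40799159, plus strand: gcggggcgcggtCACGTGcccaccgggcga
EGLN1, chr1:231422288-231422317, minus strand: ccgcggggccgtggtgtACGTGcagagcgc
EPAS1, chr2:46297157-46297401, plus strand: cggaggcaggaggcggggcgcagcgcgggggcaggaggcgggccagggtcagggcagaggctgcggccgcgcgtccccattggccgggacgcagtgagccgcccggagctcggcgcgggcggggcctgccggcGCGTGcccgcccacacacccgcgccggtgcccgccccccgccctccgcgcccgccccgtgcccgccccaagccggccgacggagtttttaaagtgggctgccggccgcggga
HIF1A, chr14:61695263-61695512, plus strand: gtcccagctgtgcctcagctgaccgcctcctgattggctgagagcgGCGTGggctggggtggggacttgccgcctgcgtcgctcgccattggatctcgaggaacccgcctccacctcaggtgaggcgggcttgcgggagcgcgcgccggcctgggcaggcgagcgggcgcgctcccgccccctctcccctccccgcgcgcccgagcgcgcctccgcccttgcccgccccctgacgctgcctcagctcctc
ANKRD37 thus had its matches within 30 bases, and its E-box accounts for 2 of the 3. The EGLN2 stretch also held an E-box, and the EGLN1 stretch held a single A form. All 30 bases of the ANKRD37 and EGLN1 stretches lay in annotated untranslated regions of transcripts. In the EGLN2, EPAS1 and HIF1A stretches 0 bases did.

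Libraries held 93.7 to 110 M estimated reads, and replicates of a group differed by more than counting noise in every pairing. Vehicle replicate 2 stood apart from the other libraries: genes of the mitochondrial genome took 13.4% of its reads, against 3.90 to 5.23% in the other vehicle libraries and 4.82 to 6.74% in treated libraries. The 9 neuronal markers together gave 5508 to 5854 CPM (reads scaled to a common library total) in vehicle and 4584 to 4640 CPM in treated libraries. Of 11 dopaminergic markers, SLC6A3, the dopamine transporter gene, was abundant, at 472 to 671 CPM over all libraries. TH, which encodes tyrosine hydroxylase, stood at 5.84 to 8.92 CPM in vehicle and at up to 18.3 CPM in treated libraries, and NR4A2, EN1 and KCNJ6 at 4.10 CPM or more in every library. DDC was at most 0.633 CPM, and SLC18A2, LMX1B, FOXA2, PITX3 and ALDH1A1 reached at most 0.198 CPM in any library. Markers of microglia summed to at most 0.146 CPM. Oligodendrocyte markers summed to 20.2 to 25.6 CPM in treated and 27.5 to 37.1 CPM in vehicle libraries. For mesenchymal and pericyte markers the sums were 18.6 to 27.0 CPM in treated and 18.5 to 23.4 CPM in vehicle libraries. Astrocyte markers summed to 28.4 to 30.2 CPM in treated and 2.73 to 3.71 CPM in vehicle libraries through 1 gene, SLC1A3, with GFAP at or under 0.0102 CPM. Endothelial markers, which matter for EPAS1 and the VEGF receptors, summed to 1.82 to 2.94 CPM in treated and 2.65 to 6.91 CPM in vehicle libraries. Markers of progenitors and cycling cells summed to 326 to 348 CPM in treated and 404 to 490 CPM in vehicle libraries. The part of these shifts in the results below was not tested, and in bulk RNA fewer cells of a type and less RNA per cell cannot be told apart.

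VEGFA, EPAS1 and ANKRD37 rose in cells given antimycin A and oligomycin, and no member fell past the threshold. By edgeR's quasi-likelihood test with a Benjamini-Hochberg adjusted p under 0.05, 3 of 10 members changed, all upward, where 57.9% of all genes tested changed (27.7% upward and 30.2% downward). The share of members called was thus below that of genes in general. At an unadjusted p under 0.05 there was 1 lower member, NDRG1, by edgeR and by DESeq2 alike. The median log2 fold change of the 10 was 0.03, beside -0.02 over all genes tested. Without vehicle replicate 2, 5 of 10 members passed, where 62.9% of genes did: VEGFA, EPAS1, ANKRD37, and on the lower side EGLN2 and NDRG1. With library totals in place of TMM scaling, 6 of 10 passed, where 57.1% of genes did, with HIF1A, ARNT and NDRG1 added on the lower side. That scaling moved the median of all genes to -0.12.

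**Figure D1:**
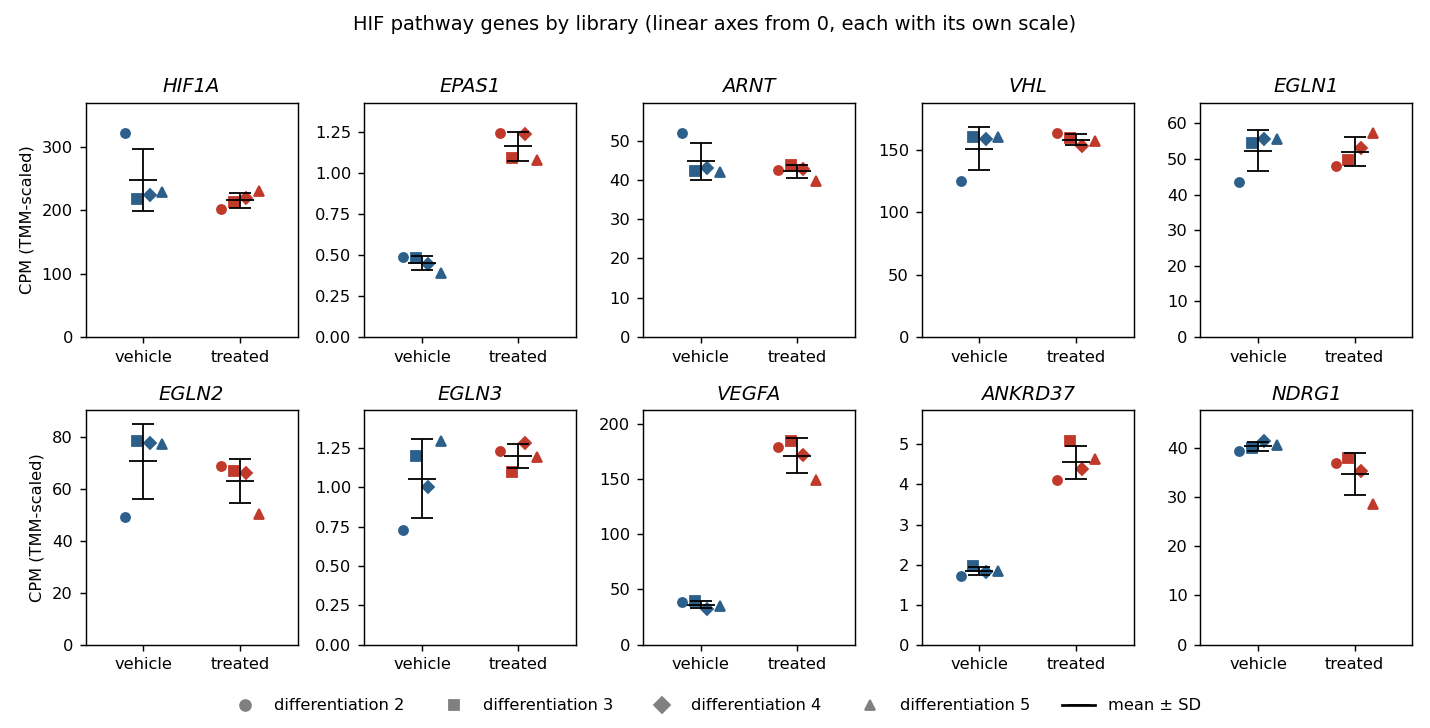
CPM of the 10 genes in each of the 8 libraries, with 1 symbol per differentiation number, the vehicle group in blue, the treated group in red, and the mean ± SD (n = 4 per group) in black. VEGFA, EPAS1 and ANKRD37 separate the groups widely, NDRG1 separates them narrowly with NDRG1-203 counted, and vehicle replicate 2 lies away from the other vehicle libraries for HIF1A, ARNT, VHL, EGLN1 and EGLN2.

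HIF1A, on chr14:61695513-61748259, encodes the alpha subunit found in nearly all cells. It stood at 201, 212, 220 and 230 CPM in treated replicates 2 to 5 and at 321, 218, 224 and 228 CPM in vehicle replicates 2 to 5. In CPM all 4 treated libraries lay near vehicle replicates 3 to 5, and vehicle replicate 2 was the single high value. The log2 fold change was -0.20 ± 0.12 (SE; edgeR adjusted p = 0.17, n = 4 per group), and -0.05 with an adjusted p of 0.42 without vehicle replicate 2. The per-length TPM scale carries no TMM scaling. On that scale the groups did not overlap, at 109 to 125 TPM in treated and 134 to 193 TPM in vehicle libraries. The share of all genes without overlap in TPM was not counted. The effective length of HIF1A was 3228 to 3387 bases in treated libraries. It was 3254 to 3318 bases in vehicle replicates 3 to 5 and 2480 bases in vehicle replicate 2. HIF1A passed the threshold on log2(TPM + 1), at -0.34 (limma adjusted p = 0.049). It did not pass on log2(TPM + 0.1), at -0.34 (limma adjusted p = 0.063), or with effective length as an offset, at -0.33 (edgeR adjusted p = 0.14).

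The excess of HIF1A reads in vehicle replicate 2 was assigned to 2 transcripts. These were picked after the values were seen, as member transcripts with at least 100 reads in 1 library and over 5 times the count of the highest other library. The rule also took NDRG1-203, described with NDRG1, and VEGFA-222, which held 102 reads, 2.94% of the VEGFA reads of that library, and 0 elsewhere. HIF1A-212, annotated with 2301 coding bases, held 5537 estimated reads there, 19.0% of the gene's reads, and at most 8.52 in any other library. HIF1A-207, a processed transcript of 739 bases with no coding sequence, held 2438 reads there and at most 10.5 elsewhere. Together they took 27.4% of the HIF1A reads of vehicle replicate 2, and the reads of the other transcripts came to 233 CPM in that library. That value is close to the 218 to 228 CPM of the other vehicle libraries.

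**Figure D2:**
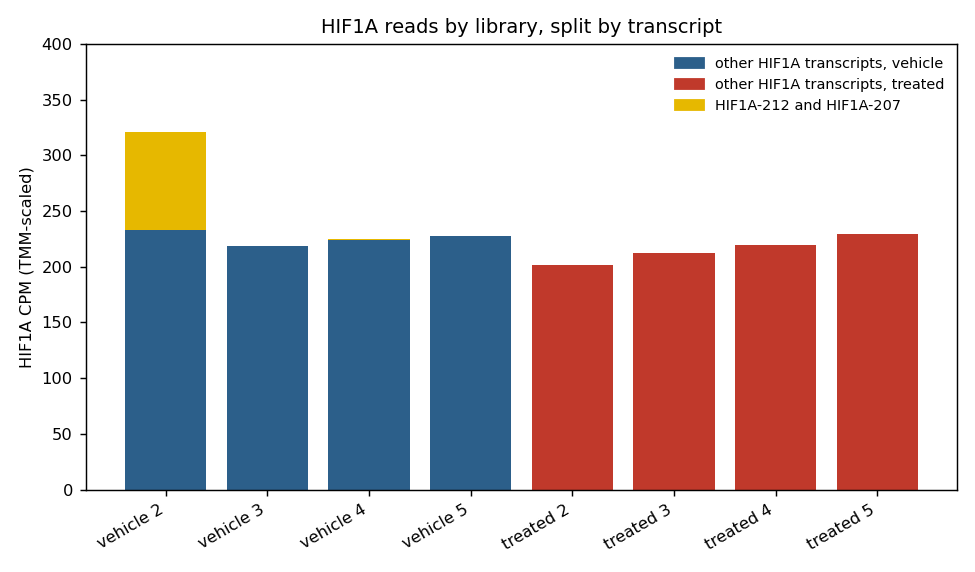
HIF1A CPM per library as bars from 0, with reads assigned to HIF1A-212 and HIF1A-207 in yellow on top of all other HIF1A transcripts (vehicle blue, treated red). The yellow part is visible in vehicle replicate 2 alone, whose bar reaches 321 CPM with it and 233 CPM without it.

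EPAS1, on chr2:46293667-46386703, encodes the second alpha subunit, HIF-2 alpha, best known from endothelial and oxygen-sensing cells. Its level was 1.24, 1.09, 1.23 and 1.08 CPM in treated replicates 2 to 5 and 0.485, 0.479, 0.447 and 0.389 CPM in vehicle replicates 2 to 5. Every treated library exceeded every vehicle library, from only 44 to 130 reads per library. EPAS1 rose by 1.37 ± 0.14 on the log2 scale (SE; edgeR adjusted p = 2.1e-05). On the per-length TPM scale HIF1A remained far above it in both groups, with 117 ± 6.70 against 0.459 ± 0.0904 TPM in treated and 150 ± 29.04 against 0.169 ± 0.0188 TPM in vehicle cells (SD, n = 4). HIF1A accordingly made up 99.6% of the summed HIF1A and EPAS1 TPM in treated and 99.9% in vehicle cells. This difference of -0.27 percentage points had an exact two-sided permutation p of 0.0286, the smallest that 4 against 4 libraries allow, and 0.114 after Benjamini-Hochberg adjustment over the 4 shares tested.

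ARNT, the constitutive partner of both alpha subunits, stood at 42.6, 43.7, 42.7 and 39.8 CPM in treated and 51.8, 42.2, 43.1 and 42.1 CPM in vehicle libraries. The groups overlapped, with vehicle replicate 2 the highest of the 8. Its log2 fold change was -0.09 ± 0.08 (SE; edgeR adjusted p = 0.38). Its paralogue ARNT2, the partner that prevails in neurons, fell from 120 ± 9.30 to 90.3 ± 2.32 CPM (SD, n = 4), a log2 fold change of -0.41 ± 0.07 (SE; edgeR adjusted p = 0.00047). In TPM, ARNT held 44.3 ± 0.562% of the ARNT and ARNT2 sum in treated and 38.2 ± 4.69% in vehicle cells (exact permutation p = 0.143, 0.143 adjusted), so the shift in the share was not past the threshold.

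Of the 9 HIF subunits and cofactors, 3 rose and 2 fell, where 57.9% of all genes tested were called. The median log2 fold change of the 9 was -0.18. With library totals 3 rose and 5 fell, HIF1A, ARNT and CITED2 being the added fallers, and on log2(TPM + 1) 2 rose and 4 fell. CREBBP and EP300, the histone acetyltransferases that HIF recruits, rose by 0.47 ± 0.10 and 0.38 ± 0.11. HIF1AN, the asparagine hydroxylase that blocks this recruitment when oxygen is present, fell from 101 ± 9.32 to 62.9 ± 2.78 CPM, a change of -0.68 ± 0.08 (edgeR adjusted p = 3.6e-05). With effective gene length as an offset the fall in HIF1AN was -1.04, and on log2(TPM + 0.1) it was -1.09. HIF3A and CITED2, a competitor for the same acetyltransferases, were not past the threshold, at -0.18 and -0.38.

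The prolyl hydroxylases showed no called change among all 8 libraries. EGLN1, on chr1:231363751-231425044, encodes the enzyme that sets HIF alpha levels in most cells, and held 48.0, 49.8, 53.2 and 57.2 CPM in treated and 43.6, 54.5, 55.7 and 55.7 CPM in vehicle libraries. The treated values lay within or just above the vehicle range. Its log2 fold change was -0.01 ± 0.09 (SE; edgeR adjusted p = 0.94), and its sign differed between settings.

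EGLN2, on chr19:40798996-40808433, held 68.6, 66.7, 66.0 and 50.2 CPM in treated and 48.9, 78.4, 77.7 and 77.2 CPM in vehicle libraries. Treated replicate 5 and vehicle replicate 2 were the low libraries, and the other 3 of each group did not overlap. The log2 fold change was -0.17 ± 0.15 (SE; edgeR adjusted p = 0.38). Without vehicle replicate 2 it was -0.31 with an adjusted p of 0.020, so the call of EGLN2 turned on that library. A readthrough gene, RAB4B-EGLN2, overlaps EGLN2 on the same strand and was counted at 0.992 CPM in treated and 0.553 CPM in vehicle cells on library totals, and how reads were divided between them is uncertain.

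EGLN3, a hydroxylase gene that HIF itself induces in many cells, was nearly silent. It held 1.23, 1.10, 1.28 and 1.19 CPM in treated and 0.727, 1.20, 1.00 and 1.30 CPM in vehicle libraries, from 66 to 150 reads. The vehicle range enclosed all treated values, and the log2 fold change was 0.18 ± 0.18 (SE; edgeR adjusted p = 0.41). Its annotated span, chr14:33924231-34462774, includes the more abundant gene SPTSSA on the same strand. In TPM, EGLN3 made up 1.07 ± 0.137% of the 3 hydroxylases in treated and 0.840 ± 0.171% in vehicle cells (SD; exact permutation p = 0.0857, 0.143 adjusted). EGLN1 made up 34.2 ± 3.80% and 30.8 ± 1.80% (exact permutation p = 0.143, 0.143 adjusted). EGLN2 was thus the most abundant of the 3 per length in both groups, at 60.3 ± 4.70 and 72.8 ± 18.0 TPM.

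VHL, on chr3:10141008-10152220, encodes the subunit that recognises hydroxylated HIF. Treated libraries held 163, 159, 153 and 157 CPM and vehicle libraries 125, 160, 159 and 160 CPM, with vehicle replicate 2 alone outside a narrow band. The log2 fold change was 0.07 ± 0.08 (SE; edgeR adjusted p = 0.52), and -0.02 without vehicle replicate 2. Of the 14 genes for prolyl hydroxylases, the VHL ligase and other ligases of this route, 1 rose and 0 fell. Among all genes tested 57.9% were called. The median log2 fold change of the 14 was 0.08, and none was lower at an unadjusted p under 0.05 by edgeR. The list's count rested on single libraries and on the scaling. Without vehicle replicate 2 it was 3, with EGLN2 and P4HTM lower, and without treated replicate 5 it was 3, with USP33 lower and OS9 higher. With library totals it was 3, with USP33 and SIAH1 lower. The riser was SIAH2, a ubiquitin ligase that marks prolyl hydroxylases for destruction, at 65.4, 59.8, 63.4 and 59.6 CPM in treated and 24.9, 22.0, 25.5 and 24.0 CPM in vehicle libraries. The groups were far apart, and the rise was 1.37 ± 0.07 (SE; edgeR adjusted p = 2e-07). ELOB, ELOC, CUL2 and RBX1, which build the VHL ligase, were not past the threshold, between -0.05 and 0.24.

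**Figure D3:**
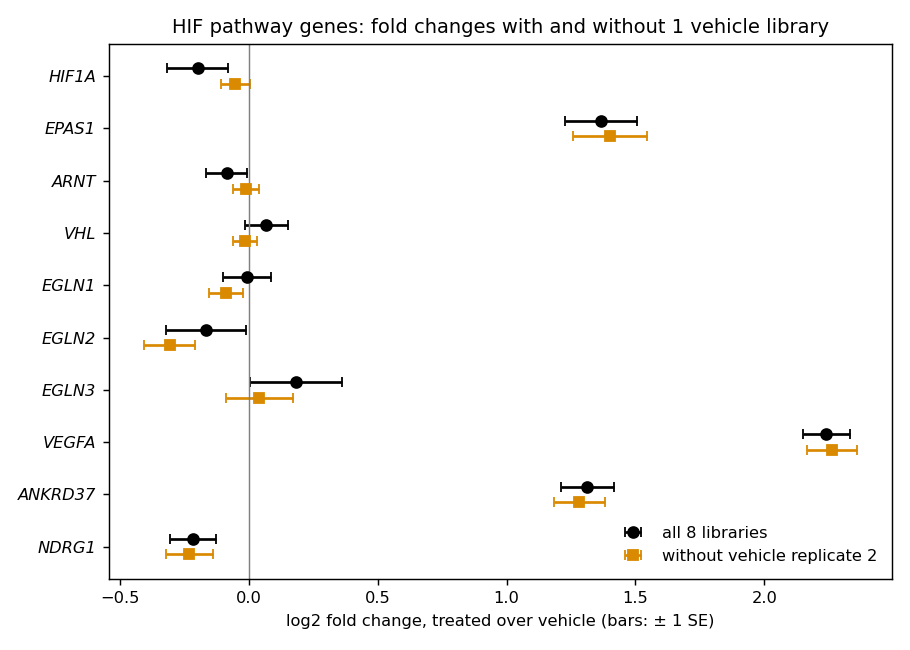
Log2 fold changes of the 10 genes (treated over vehicle) from all 8 libraries (black circles) and without vehicle replicate 2 (orange squares), with bars of ± 1 SE and a grey line at 0. VEGFA, EPAS1 and ANKRD37 stay above 1 in both, while HIF1A moves from -0.20 to -0.05 and EGLN2 from -0.17 to -0.31.

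VEGFA, on chr6:43770184-43786487, encodes the main angiogenic growth factor, which also acts on neurons. Treated replicates 2 to 5 held 180, 185, 172 and 149 CPM and vehicle replicates 2 to 5 held 38.2, 39.6, 32.5 and 34.8 CPM. The lowest treated library was far above the highest vehicle library. The log2 fold change was 2.24 ± 0.09 (SE; edgeR adjusted p = 5.2e-08), and it ranged from 2.04 to 2.30 over 18 alternative analyses, each past the threshold. On the TPM scale VEGFA moved through the order of the 10 genes. In vehicle cells, at 28.4 ± 2.11 TPM, it stood sixth, and its mean ± SD overlapped that of NDRG1. In treated cells, at 120 ± 6.18 TPM, it stood first, and its mean ± SD overlapped that of HIF1A.

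The order of the others was the same in both groups apart from VEGFA. HIF1A was followed by VHL, EGLN2, EGLN1, NDRG1, ARNT, ANKRD37, EGLN3 and EPAS1. Neighbours whose mean ± SD overlapped were VHL with EGLN2 and EGLN1 with NDRG1 in vehicle cells, and NDRG1 with ARNT in treated cells. ANKRD37 stood at 13.4 ± 1.49 TPM in treated and 5.61 ± 1.07 TPM in vehicle cells. Both groups thus had a wide gap between it and EGLN3, at 0.992 ± 0.133 and 0.918 ± 0.345 TPM.

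VEGFA has several transcripts that encode proteins of different length, and the rise was spread over the main ones, which were chosen here by their mean TPM after the values were seen. VEGFA-205, with 1113 coding bases, held 35.0, 28.4, 32.7 and 33.01 TPM in treated and 3.84, 8.32, 6.89 and 7.97 TPM in vehicle libraries. VEGFA-206, with 441 coding bases, held 26.7 to 31.1 and 4.52 to 5.99 TPM. VEGFA-209, with 1185 coding bases, held 20.6 to 30.04 and 4.18 to 5.65 TPM. For each of the 3, every treated library exceeded every vehicle library. As shares of VEGFA TPM they were 26.9 ± 3.16%, 23.6 ± 1.32% and 20.1 ± 2.69% in treated and 23.7 ± 6.73%, 19.0 ± 2.36% and 17.8 ± 1.69% in vehicle cells (SD, n = 4).

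For 8 of the 10 genes transcript usage could be tested (diffSpliceDGE in edgeR), EPAS1 and EGLN1 having too few transcripts above the read minimum. None passed an adjusted p under 0.05, where 8.61% of 11746 genes did, and 1 of 8, VEGFA, had an unadjusted p under 0.05. The adjusted p was 0.12 for VEGFA and 0.54 for HIF1A. VEGFA passed without vehicle replicate 3 (0.030) and without vehicle replicate 5 (0.045), each time through VEGFA-201. That transcript held 281 reads in vehicle replicate 2, 15.2 to 39.0 in the other vehicle libraries and 73.7 to 125 in treated libraries. HIF1A passed (3.2e-05) when transcripts with 5 reads were admitted, through HIF1A-212 described above. Calls near the threshold are less sure, because the test leaves out the error of dividing reads among transcripts.

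HIF1A-202 and HIF1A-203, the main HIF1A transcripts, differ in coding length by 1 codon, with 2478 and 2481 bases. HIF1A-202 held 74.0 to 81.9 TPM in treated and 60.0 to 90.4 TPM in vehicle libraries. HIF1A-203 held 19.7, 21.1, 18.8 and 24.0 TPM in treated and 27.7, 35.1, 32.8 and 33.6 TPM in vehicle libraries. For HIF1A-203 the groups did not overlap, with vehicle replicate 2 the lowest of its group. As the gene's usage test was not past the threshold, this is a description.

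ANKRD37, on chr4:185396021-185400628, encodes a small ankyrin-repeat protein and is a target of HIF. It held 4.12, 5.09, 4.38 and 4.65 CPM in treated and 1.72, 1.95, 1.81 and 1.85 CPM in vehicle libraries, from 156 to 461 reads. All treated libraries exceeded all vehicle libraries, and vehicle replicate 2 did not stand apart. The rise was 1.31 ± 0.10 on the log2 scale (SE; edgeR adjusted p = 3.3e-06). The coding transcript ANKRD37-201 held 75.1 ± 3.82% of the gene's TPM in treated and 72.2 ± 3.41% in vehicle cells. The gene's end overlaps 1089 bases of UFSP2 on the opposite strand, which stood at 40.1 CPM in treated and 32.3 CPM in vehicle cells on library totals. The sources used here do not say if reads were counted by strand, and without strand those of the overlap cannot be told apart.

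NDRG1, a stress-responsive gene that hypoxia raises in many cell types, was on the lower side. It held 37.0, 38.1, 35.3 and 28.7 CPM in treated and 39.5, 40.1, 41.5 and 40.7 CPM in vehicle libraries. The groups did not overlap, as was the case for 4 of the 10 members and 53.4% of all genes tested. For NDRG1 this rested on NDRG1-203, a processed transcript with 275 reads in vehicle replicate 2, 7.69% of the gene's reads there, and 0 in the other libraries. Without it that library stood at 36.4 CPM, below treated replicates 2 and 3. The log2 fold change was -0.22 ± 0.09 (SE; edgeR adjusted p = 0.057). NDRG1 passed at -0.23 without vehicle replicate 2 (0.048) and at -0.26 without treated replicate 3 (0.046), and also at -0.25 among coding genes outside the mitochondrial genome (0.032). On log2(TPM + 0.1) it was -0.35 (limma adjusted p = 0.012), and on library totals -0.32 (0.015). The other 3 NDRG genes, related proteins of the nervous system and other tissues, all fell, with log2 fold changes of -0.61 ± 0.10 for NDRG2, -0.37 ± 0.06 for NDRG3 and -0.34 ± 0.07 for NDRG4. Of all genes tested, 30.2% fell.

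In the authors' deposited table of coding genes the same 3 members had a false discovery rate under 0.05. It gives log2 fold changes of 2.24 for VEGFA, 1.40 for ANKRD37 and 1.38 for EPAS1. Of the 12898 genes of that table, 57.7% were under the same threshold. For EGLN3 the authors' deposited table gives -0.05, on the other side of 0 from the value above, with a false discovery rate of 0.857.

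VEGFA belongs to a family of ligands that signal through the receptor kinases FLT1, KDR and FLT4 and the co-receptors NRP1 and NRP2. Of its 10 genes 7 were tested, 6 rose and 0 fell, where 27.7% of all genes tested rose and 30.2% fell. The median log2 fold change of the 7 was 0.80. At an unadjusted p under 0.05 the count of fallers was also 0. Without vehicle replicate 4 the read filter admitted VEGFC, which then fell (-1.11, edgeR adjusted p = 0.024). With all 8 libraries VEGFC, KDR and FLT4 were too low to be tested, and the main receptor of VEGFA and that of VEGFC were at most 0.152 and 0.0874 CPM in any library.

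PGF, placental growth factor, held 66.2, 60.6, 60.7 and 46.2 CPM in treated and 20.2, 28.3, 26.8 and 24.0 CPM in vehicle libraries. VEGFD held 108, 106, 110 and 117 CPM in treated and 64.6, 61.7, 63.5 and 63.1 CPM in vehicle libraries. Neither gene's groups overlapped, and the rises were 1.23 ± 0.13 for PGF and 0.80 ± 0.06 for VEGFD (SE; edgeR adjusted p = 2.6e-05 and 1.5e-06). Per length, VEGFD was the most abundant ligand in vehicle cells, at 68.0 ± 3.02 TPM against 28.4 ± 2.11 for VEGFA, and in treated cells stood at 109 ± 3.53 TPM against 120 ± 6.18 for VEGFA. The authors' own comparison of coding genes held no gene under the symbol VEGFD. Genes that overlap VEGFD were not examined.

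NRP1 rose from 1.41 ± 0.0440 to 3.07 ± 0.432 CPM, a change of 1.12 ± 0.12 (SE; edgeR adjusted p = 3.4e-05), which became 0.73 on log2(TPM + 1). FLT1, a receptor that binds VEGFA, VEGFB and PGF, rose by 0.76 ± 0.15 from 2.63 CPM, and VEGFB by 0.71 ± 0.13 from 3.003 CPM. These last 2 were named after their values were seen, as the remaining risers. NRP2 stood at 157 to 164 CPM in treated and 140 to 158 CPM in vehicle libraries and was not past the threshold (0.12, edgeR adjusted p = 0.098). Of 4 endothelial markers tested, PECAM1 rose and CLDN5 fell, and their sums are given above.

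**Figure D4:**
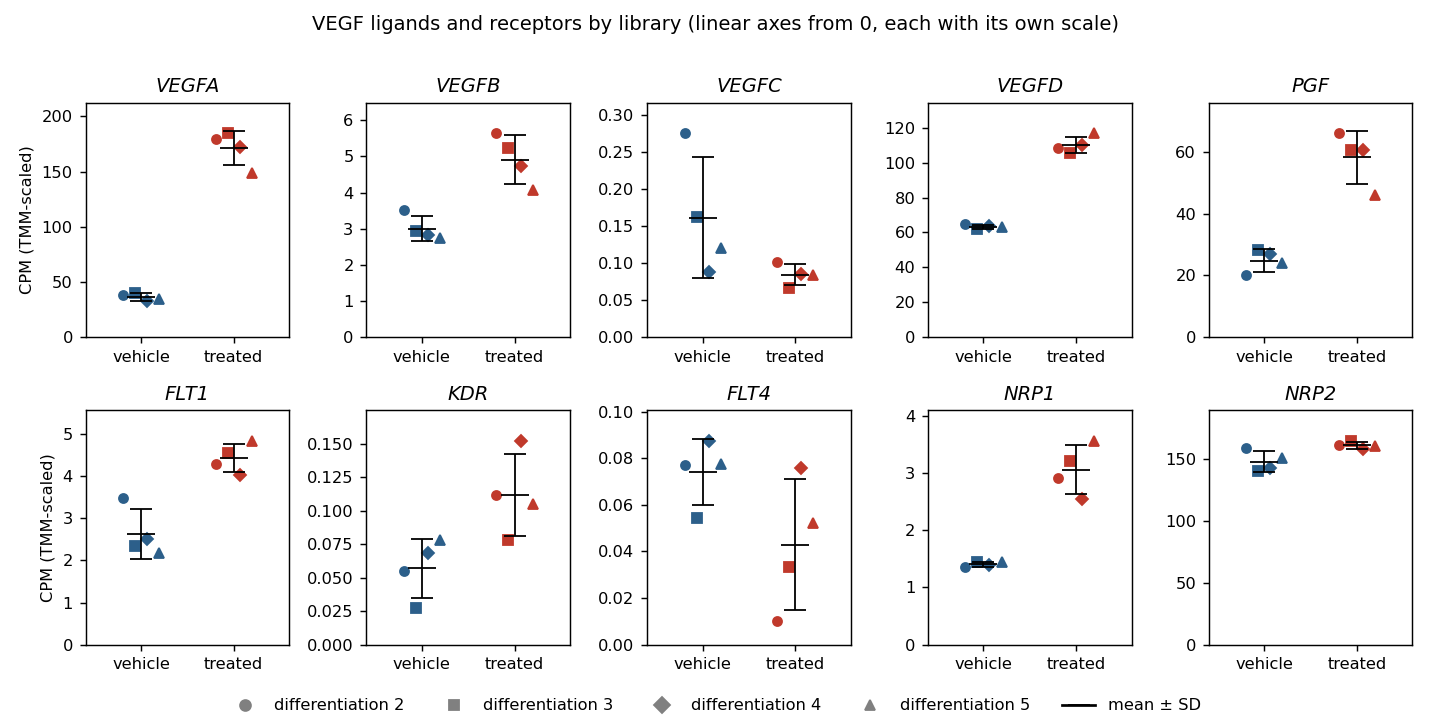
CPM of 10 VEGF ligands and receptors in each of the 8 libraries, drawn as for the plot of the 10 HIF pathway genes, with mean ± SD (n = 4 per group). The groups do not overlap for 7 of the 10. Among the 7 genes tested these are VEGFA, VEGFB, VEGFD, PGF, FLT1 and NRP1, while NRP2 overlaps. The remaining 1 was too low to be tested. No overlap held for 53.4% of all genes tested, a share that leaves such low genes out. VEGFC, KDR and FLT4 lie under 0.276 CPM or at it.

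Other hypoxia-inducible genes moved in both directions. Of 38 such genes outside the 10, 35 were tested, 13 rose and 6 fell, with a median log2 fold change of 0.12, so the share called was close to the 57.9% of all genes. The excess of risers depended on the setting. By limma, 7 rose and 8 fell on log2(TPM + 0.1), and 7 and 7 on log2(TPM + 1). With effective length as an offset, 10 rose and 8 fell. The TPM settings also change the test and the filter for low genes, and they apply no TMM scaling. On log2(TPM + 0.1) limma called 7781 of 16891 genes, 3102 higher and 4679 lower, with a median of -0.07 over all genes tested there. Which of these differences moved the counts was not tested. DDIT4, an inhibitor of mTORC1 that other stresses also induce, rose from 26.1 ± 6.01 to 307 ± 30.5 CPM (3.55 ± 0.17). BHLHE40, a transcriptional repressor, rose by 2.47 ± 0.20 and JMJD6, a lysyl hydroxylase, by 1.12 ± 0.09. ADM, the adrenomedullin gene, had the largest fold change of the list, 4.18 ± 0.35, and is named after its values were seen: it stood at 0.471 to 0.767 CPM in treated and 0.0110 to 0.0543 CPM in vehicle libraries. FAM162A, a mitochondrial protein gene induced by HIF, fell from 29.2 ± 1.46 to 13.8 ± 1.09 CPM (-1.08 ± 0.08). AK4, a mitochondrial adenylate kinase gene, and GBE1, the glycogen branching enzyme gene, also fell (-0.74 ± 0.10 and -0.30 ± 0.07). GBE1 lost the call on the TPM scale.

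Some classical targets were among those not past the threshold: BNIP3 (0.12), BNIP3L (0.09), KDM3A (0.07) and ERO1A (0.10). They stand beside the 13 genes of the list that rose and the 6 that fell. CA9 and LOX were too low to be tested, at no more than 0.121 CPM in any library. BNIP3, BNIP3L, KDM3A and ERO1A are among 16 tested genes of the list without a call, and the named examples were chosen after their values were seen.

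Glucose metabolism genes that HIF can induce were likewise divided, with 6 rising, 5 falling and 8 not past the threshold among 19, and a median of 0.18. The list thus gave 11 calls, where 57.9% of all genes tested were called (27.7% upward and 30.2% downward). HK2, SLC2A3 and ALDOA rose by 0.97 ± 0.08, 0.53 ± 0.07 and 0.42 ± 0.10. PFKFB3, GPI and PDK1 fell, with -0.50 ± 0.11, -0.27 ± 0.08 and -0.27 ± 0.07, where PFKFB3 and PDK1 are enzymes that HIF raises in hypoxia. PDK1 was not past the threshold with effective length as an offset (-0.14) or on the TPM scale, nor was ALDOA on the TPM scale (0.35). In 2 settings, both on the TPM scale, 5 of the 19 were called in place of 11, with 2 rising and 3 falling. With library totals 3 rose and 5 fell.

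A list of 13 other oxygenases that use 2-oxoglutarate, histone demethylases and the TET enzymes, shares the chemistry of the EGLN enzymes. All 13 were called (9 to 13 over the alternatives), 9 rising and 4 falling, with a median of 0.37. KDM4A rose by 0.70 ± 0.06, TET3 by 0.68 ± 0.07 and KDM6A by 0.68 ± 0.08. KDM2B, KDM5B and KDM3B fell, with -0.58 ± 0.07, -0.29 ± 0.07 and -0.28 ± 0.07. Among all genes tested 57.9% were called. With library totals 6 rose and 4 fell, and on either TPM scale 5 rose and 4 fell. Enzymes of the same chemistry that other lists hold were not all called: KDM3A (0.07) and P4HTM (-0.29) were not past the threshold.

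**Figure D5:**
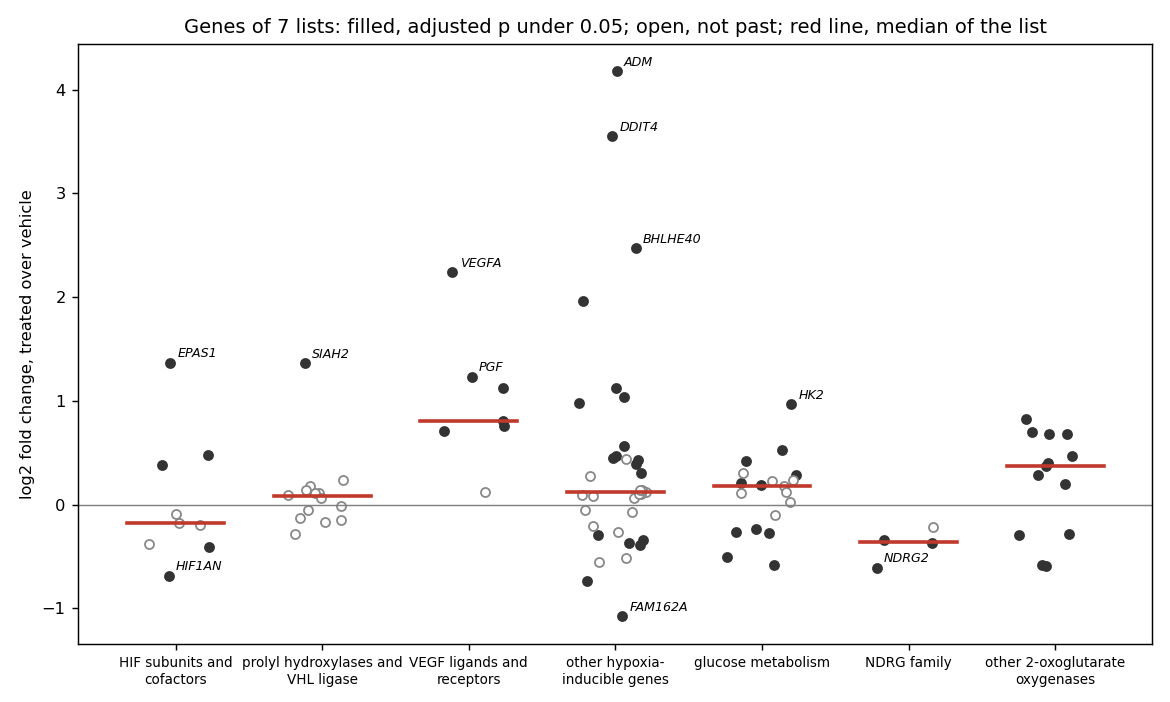
Log2 fold changes (treated over vehicle) of the genes tested in 7 lists, with filled points for an adjusted p under 0.05, open points for the rest and a red line at each list's median. The VEGF list has the highest median, 0.80, and the list of other hypoxia-inducible genes spans from -1.08 for FAM162A to 4.18 for ADM.

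For the 3 members that rose, the genes with the most similar pattern were taken as those with the smallest Euclidean distance of centred log2 CPM over the 8 libraries, among 11116 genes. Nearest to VEGFA were TRIM66 (distance 0.278), CARS1 (0.342) and HSPA5 (0.354), whose log2 fold changes were 2.09, 2.34 and 2.18. Nearest to EPAS1 were GADD45A (0.230), HAX1 (0.236) and PDLIM3 (0.2496), with log2 fold changes of 1.34, 1.26 and 1.26. Nearest to ANKRD37 were OTUD3 (0.212), CRNDE (0.240) and H2AC6 (0.245), with 1.29, 1.30 and 1.31. The distance selects genes with a fold change of similar size, and shared control of these genes was not tested.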

How the data were processed

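RNA sequencing of 8 libraries was analysed. For each library the authors deposited gene and transcript tables whose headers name estimated counts (reads shared out among features), TPM and an effective length. The quantifier is not named in the sources. Per the submitters' processing notes, HISAT2, SAMtools and StringTie were used on hg38. A table of the authors' own comparison of coding genes was also deposited, with a signal per library of unnamed unit, log2 fold changes, p-values and false discovery rates.

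After rounding of the counts, low genes were removed (filterByExpr) and TMM factors computed. Treated and vehicle libraries were then compared in edgeR 4.0.16 under R 4.3.3 (quasi-likelihood F-test, no covariate, Benjamini-Hochberg adjusted p under 0.05). Each SE is derived from the F statistic. CPM use TMM-scaled library sizes. DESeq2 1.42.0 and limma 3.58.1 on log2(TPM + 0.1) and log2(TPM + 1), for genes with a mean TPM of at least 0.5, were alternatives. The limma settings used TPM as given, with no TMM scaling. TMM factors were 0.960 to 0.973 in treated libraries, 0.969 in vehicle replicate 2 and 1.04 to 1.07 in vehicle replicates 3 to 5. Transcript usage was tested on read counts with diffSpliceDGE and Simes' method, for transcripts that reached 10 reads in 4 or more libraries. The 4 shares of TPM between related genes were compared by exact permutation over 70 assignments. The scripts were tested on simulated data.

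Gene models and transcript names came from GENCODE 29. The 10 genes and all lists were chosen with earlier results of these data known. Named genes are the 10, up to 3 risers and 3 fallers of each list by adjusted p, and the 3 nearest genes of each member with a log2 change of at least 1, at a mean CPM of at least 5. Libraries with the same number did not deviate together (correlations -0.08 to 0.03), so numbers were not used to pair libraries.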

Additional observations from a re-analysis of the deposited data

Results flagged for a closer look

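In 6 of the 20 groups of 4 libraries (10 genes, each in treated and vehicle cells), 1 library lay far from the other 3, by its gap to the nearest library over the group's range. Chance flags about 1 in 20 groups if they are independent, but the 10 genes share the same libraries. The share flagged among all genes was not counted, so an excess in these genes cannot be read from this. Over the genes tested, the chi-square per degree of freedom of vehicle replicate 2 against the other vehicle libraries was 313 to 436. Between the other vehicle libraries it was 13.9 to 40.1. Of the 6, 5 concern vehicle replicate 2, the library with 13.4% of reads from mitochondrial genes. It was the highest vehicle library for HIF1A (321 CPM, others 218 to 228) and ARNT (51.8 CPM, others 42.1 to 43.1). It was the lowest for VHL (125 CPM, others 159 to 160), EGLN1 (43.6 CPM, others 54.5 to 55.7) and EGLN2 (48.9 CPM, others 77.2 to 78.4). The sixth is EGLN2 in treated replicate 5, at 50.2 CPM where the others held 66.0 to 68.6. VEGFA, EPAS1, ANKRD37, EGLN3 and NDRG1 had no such library in either group.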

How the results depend on the processing

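VEGFA (2.04 to 2.30), ANKRD37 (1.13 to 1.36) and EPAS1 (1.27 to 1.495) passed the threshold in every alternative that tested them; EPAS1 was below the TPM minimum and so was not tested in 2. The number of members called was 6 with library totals only, and 3 to 5 when 1 library was left out, with 5 without vehicle replicate 2; in the other settings it was 3 or 4. The log2 fold change of VHL was -0.0362 with library totals and -0.0166 to 0.0927 on leaving out 1 library, lowest without vehicle replicate 2. That of EGLN1 was 0.0127 with RLE size factors and with DESeq2, 0.0492 with effective length as an offset, and -0.0908 to 0.0310 on leaving out 1 library, with positive values in 8 settings in all. Members with changed transcript usage numbered 1 at a minimum of 5 reads (HIF1A) and 0 to 1 on leaving out 1 library, where the 1 was VEGFA without vehicle replicate 3 or 5. The cause of these changes was not tested. A replicate block by differentiation number called 3 members and 10764 genes, and no call of a member changed; no library correlated best with its own number (0 of 4). Over all alternatives 7781 to 12702 genes were called, with 4280 higher and 7023 lower with library totals. The fit on coding genes outside the mitochondrial genome was chosen after seeing the data. None of the 4 shares passed the threshold after adjustment in any setting. Depth limits EPAS1 (44 to 130 reads), EGLN3 (66 to 150) and ANKRD37 (156 to 461), and 4 libraries per group cannot give an exact p under 0.0286.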
